A study of Mus musculus with 12 samples.

Results

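The genes described here are 44 genes of redox defence and of oxidant production, read in 12 libraries of mouse left ventricle: the transcription factor NRF2 and its inhibitor KEAP1, the glutathione, thioredoxin, superoxide dismutase, catalase, metallothionein and NADPH-supplying genes grouped with them, and, kept apart from these, the subunits of NADPH oxidase with 3 other oxidases. They were taken by gene name from the table of raw gene counts, which holds 53465 genes. All 44 names were found, and all 44 were among the 16101 genes that passed the filter on low counts. 36 genes make up the antioxidant side and 8 the oxidase side. The samples came from 4 groups of 3 male mice on a C57BL/6J background, 8 weeks old at the start. A17fl/fl mice (ADAM17flox/flox) carry the floxed allele of Adam17, the gene of a membrane protease that releases TNF-α and other proteins from the cell surface. A17α-MHCKO mice are their littermates in which Cre, driven by the α-MHC promoter, removes exon 2 of Adam17 in cardiomyocytes. Mice of either genotype received normal saline (A17fl/fl + NS, A17α-MHCKO + NS) or doxorubicin (A17fl/fl + DOX, A17α-MHCKO + DOX), an anthracycline given in 4 weekly intraperitoneal injections of 5 mg/kg, 20 mg/kg in all, and hearts were taken 4 weeks after the last injection. All 4 groups carry the floxed allele, none carries Cre without it, and the α-MHC promoter leaves Adam17 intact in fibroblasts, vessels and leukocytes of the same tissue. Every library is a whole piece of tissue, so that fewer cells of a type and less RNA per cell cannot be told apart.

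NRF2, the product of Nfe2l2, is held in the cytoplasm by KEAP1, which passes it to a ubiquitin ligase. Oxidants and electrophiles modify cysteines of KEAP1, NRF2 then escapes degradation, enters the nucleus and, paired with a small MAF protein, binds antioxidant response elements, while BACH1 competes for the same sites. Its textbook targets make glutathione, reduce thioredoxin and peroxiredoxins and detoxify quinones. Doxorubicin is itself a quinone that flavoenzymes can reduce by a single electron and that passes this electron on to oxygen. On the other side, NADPH oxidases make superoxide or hydrogen peroxide on purpose: the phagocyte enzyme joins the membrane subunits encoded by Cybb and Cyba with cytosolic subunits such as those of Ncf1 and Ncf4, whereas the enzyme of Nox4 needs Cyba but none of the cytosolic subunits.

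Total counts per library lay between 15950717 and 21725076, with a median of 16413855. Levels are given as CPM, counts scaled to a common library size with TMM factors, when mice are compared, and as FPKM, which also divides by gene length, when genes are compared. Adam17 was at 27.9 to 36.8 CPM in the 6 A17α-MHCKO libraries and at 43.6 to 70.9 CPM in the 6 A17fl/fl libraries, 35.7% lower on average, without overlap (p = 0.00216 in a two-sided exact permutation test, which cannot go lower with 6 against 6 mice). The library of A17fl/fl + NS replicate 1 stood apart: on the first principal component it scored -120 where the other 11 lay between -12.9 and 28.4. The summed level of 8 neutrophil markers was 2490 CPM in it and 9.94 to 68.7 CPM in the other 11, that of 10 macrophage markers 2765 against 776.5 to 1160 CPM, and that of 8 fibroblast markers 8655 against 1414 to 3052 CPM. Most of this last sum was collagen, with Col1a1 at 2262, Col1a2 at 1335 and Col3a1 at 3801 CPM. Pdgfra was also highest in that library (117.9 CPM), and Dcn lay within the range of the rest. Lum, Tcf21 and Dpt were at their lowest in it (69.2, 9.35 and 102.2 CPM). All 8 cardiomyocyte markers were read in every library, with a sum of 17930 CPM in that library and of 27890 to 44880 CPM in the rest, and the sum was higher in each of the 6 DOX libraries (39490 to 44880 CPM) than in any NS library. The 5 atrial markers summed to between 332.5 and 8361 CPM, and Nppa was the largest part of the sum in every library. In A17fl/fl + NS replicates 1 and 3 the sum was nearly all Nppa (1020 and 330.7 CPM). Sln was at 0 CPM in both, and Myl7 at 0 and 0.063 CPM. Because the odd library is 1 of the 3 saline controls of the floxed mice, values without it stand beside the counts and beside the genes described. Such values rest on replicates 2 and 3 alone as saline controls of the floxed mice, and these differed widely in some genes. Nqo1 was at 32.1 and 75.4 CPM in them, Cat at 162.4 and 409.2 CPM and Hmox1 at 20.4 and 70.2 CPM.

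That library had the highest level of all 12 in 26 of the 44 genes (59.1%), whereas it was highest in 26.1% of all genes tested. Of these 26, 21 were on the antioxidant side and 5 on the oxidase side (Cybb, Cyba, Ncf1, Ncf4 and Maoa). Against the median of the other 11 libraries it held 14.0 times as much Mt2, 9.36 times as much Ncf4, 6.76 times as much Ncf1, 4.74 times as much Sod3, 4.41 times as much Glrx and 4.09 times as much Gsr. It was the lowest of the 12 in 7 of the 44 genes (Cat, Gstm1, Maob, Prdx3, Sod1, Txn2 and Txnip), beside 25.5% of all tested genes. Another 7 genes (Cat, Gclm, Gsta4, Gstm1, Maob, Nqo1 and Xdh; 15.9%) were highest in A17fl/fl + NS replicate 3, beside 13.9% of all tested genes. A further 7 (Keap1, Prdx2, Prdx3, Sod1, Sod2, Txn2 and Txnrd2) were highest in A17α-MHCKO + DOX replicate 1, 15.9% beside 15.4%. None of the 3 A17fl/fl + DOX libraries was highest in any of the 44, beside 3.05%, 3.15% and 5.43% of all tested genes.

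**Figure D1:**
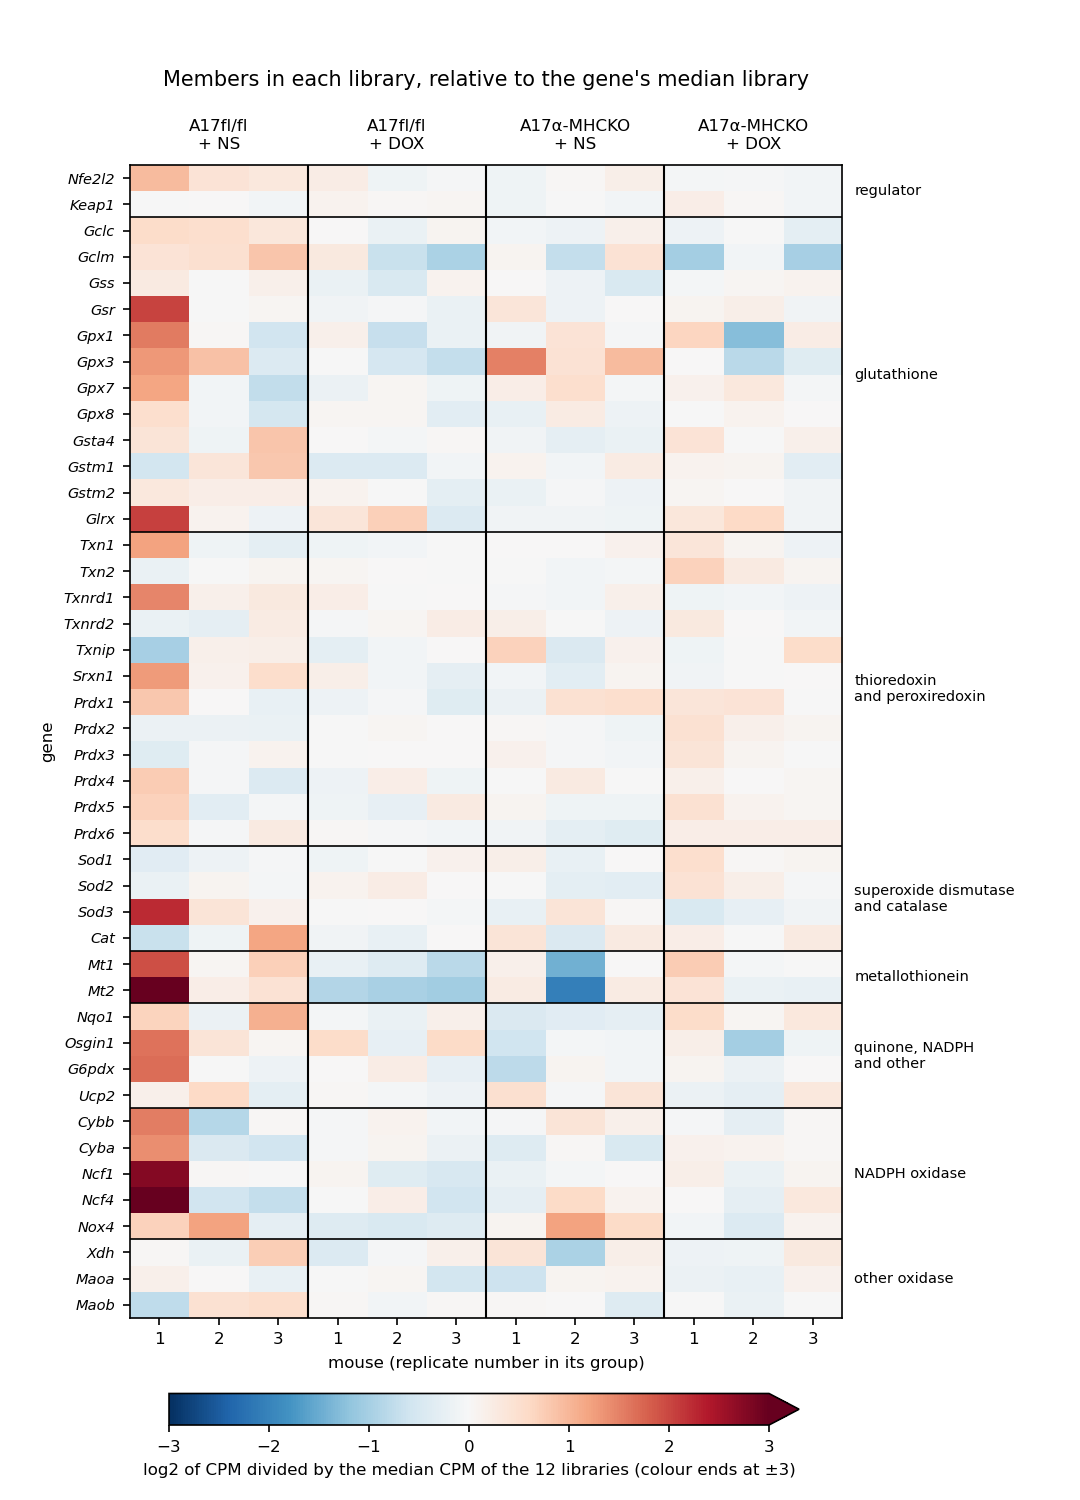
Level of each of the 44 genes (rows, grouped by role) in each of the 12 mice (columns, 3 per group), as the log2 ratio of its CPM to the median CPM of the 12 libraries. Red is above and blue below the median; the first column, A17fl/fl + NS replicate 1, is the highest of its row in 26 of 44 genes.

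Per unit of transcript length the set spanned a wide range. Sod1, cytosolic superoxide dismutase, was the most abundant at a mean of 284 FPKM over the 12 libraries, followed by the mitochondrial genes Prdx3 at 155 FPKM and Sod2 at 130 FPKM, the secreted glutathione peroxidase Gpx3 at 123 FPKM and Mt1 at 112 FPKM. The oxidase subunits were less abundant than these. Cyba was at 37.8 FPKM, rank 16 of the 44, Cybb at 5.31, Ncf1 at 3.21, Ncf4 at 1.96 and Nox4 at 0.361 FPKM, the lowest of all 44. These means include the odd library, in which Mt1, Cyba, Cybb, Ncf1 and Ncf4 were at their highest. Osgin1 was the only other gene under 1 FPKM, at 0.707.

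The promoters of 3 genes that hold an antioxidant response element core are shown: that of NRF2 itself, of a subunit of the first enzyme of glutathione synthesis and of thioredoxin reductase. RefSeq gives a window from 250 bases before to 50 bases after the start of transcription for 36 of the 44 genes, on GRCm38.p6. The core of the antioxidant response element, TGACNNNGC on either strand, occurred in a window of 9 of the 36 (25%) and of 14% of 27025 genes with a window. The 9 were Nfe2l2, Gclm, Txnrd1, Srxn1, Prdx1, Sod1, Mt2, G6pdx and Ucp2, and none of the 5 oxidase genes with a window held it, nor did Keap1 or Nqo1. Sequence outside these windows was not searched, so a core further from the start would be missed. The 250 bases before the start are printed 5′ to 3′ on the gene's strand, with the match to the core, or to its reverse complement, in capitals. The first base of the match lay at -240 from the start in Nfe2l2 (chr2:75704664-75704913, minus strand), at -134 in Gclm (chr3:122245307-122245556, plus strand) and at -92 in Txnrd1 (chr10:82858956-82859205, plus strand). Txnrd1 has 3 windows, of which only the 1 shown holds the core.
Nfe2l2: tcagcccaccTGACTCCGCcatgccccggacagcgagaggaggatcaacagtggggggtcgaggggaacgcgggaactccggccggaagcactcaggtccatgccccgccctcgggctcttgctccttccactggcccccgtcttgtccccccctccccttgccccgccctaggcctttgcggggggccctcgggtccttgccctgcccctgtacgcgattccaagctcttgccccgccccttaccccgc
Gclm: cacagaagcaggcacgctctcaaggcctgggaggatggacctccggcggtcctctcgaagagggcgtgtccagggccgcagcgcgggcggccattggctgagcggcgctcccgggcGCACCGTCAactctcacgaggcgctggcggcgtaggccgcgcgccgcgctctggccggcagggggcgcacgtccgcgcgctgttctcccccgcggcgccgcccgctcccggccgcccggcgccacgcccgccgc
Txnrd1: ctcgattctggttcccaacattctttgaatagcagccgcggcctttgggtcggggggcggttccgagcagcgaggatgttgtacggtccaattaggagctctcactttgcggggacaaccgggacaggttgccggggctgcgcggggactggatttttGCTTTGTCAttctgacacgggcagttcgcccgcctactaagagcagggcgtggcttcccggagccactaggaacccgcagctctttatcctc

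After doxorubicin in A17fl/fl mice the set stood lower as a whole. 36 of the 44 genes had a negative log2 fold change, and the median of the 44 was -0.46 where that of all tested genes was -0.04. A positive one was found in 18.2% of the 44 and in 44.5% of all tested genes. By the limits of the study's methods (absolute log2 fold change over 1, unadjusted p under 0.05, and a mean above 1 FPKM in either group) 7 of the 44 were called, all lower, beside 2.82% of all tested genes, 2.22% lower. These were Gpx3, Gsr, Sod3, Mt1 and Mt2 on the antioxidant side and Ncf1 and Ncf4 on the oxidase side. At an unadjusted p under 0.05 alone, 15 were lower and 0 higher, beside 6.58% lower and 4.11% higher, 10.7% in all, of the tested genes. The levels of the groups did not overlap in 11 of the 44, 9 lower and 2 higher, beside 13.3% of all tested genes, 6.11% lower and 7.15% higher. Without A17fl/fl + NS replicate 1, 2 genes met the limits (Gclm and Mt2, both lower, beside 1.24% of all genes), 9 were lower and 1 higher at an unadjusted p under 0.05 (beside 10.2%), the median came to -0.15 and 15 genes changed sign. The part of the leukocyte and collagen RNA of that library in the other values was not tested. In edgeR's quasi-likelihood test of all 12 libraries none of the 44 had a Benjamini-Hochberg adjusted p under 0.05 in any of the 7 comparisons. Of all tested genes 0.0186% had one between the genotypes after saline, 0.00621% after doxorubicin and 0.0248% over both treatments, and 0 genes in the other 4. By DESeq2 the adjusted p was under 0.05 for Prdx6 between the genotypes after saline and for Gpx3 after doxorubicin over both genotypes, and by edgeR's likelihood ratio test for Mt2 in A17fl/fl mice given doxorubicin and for Gpx3 over both genotypes. With 1 library left out, the quasi-likelihood test gave one under 0.05 in 1 such fit each for the following. Between the genotypes after saline these were Nqo1 (0.00803), Gsta4 (0.0269), Srxn1 (0.0276) and Prdx6. After doxorubicin in A17fl/fl mice they were Nqo1 (0.0354), Srxn1 (0.0441) and Mt2, and in the interaction Nqo1 (0.0279).

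**Figure D2:**
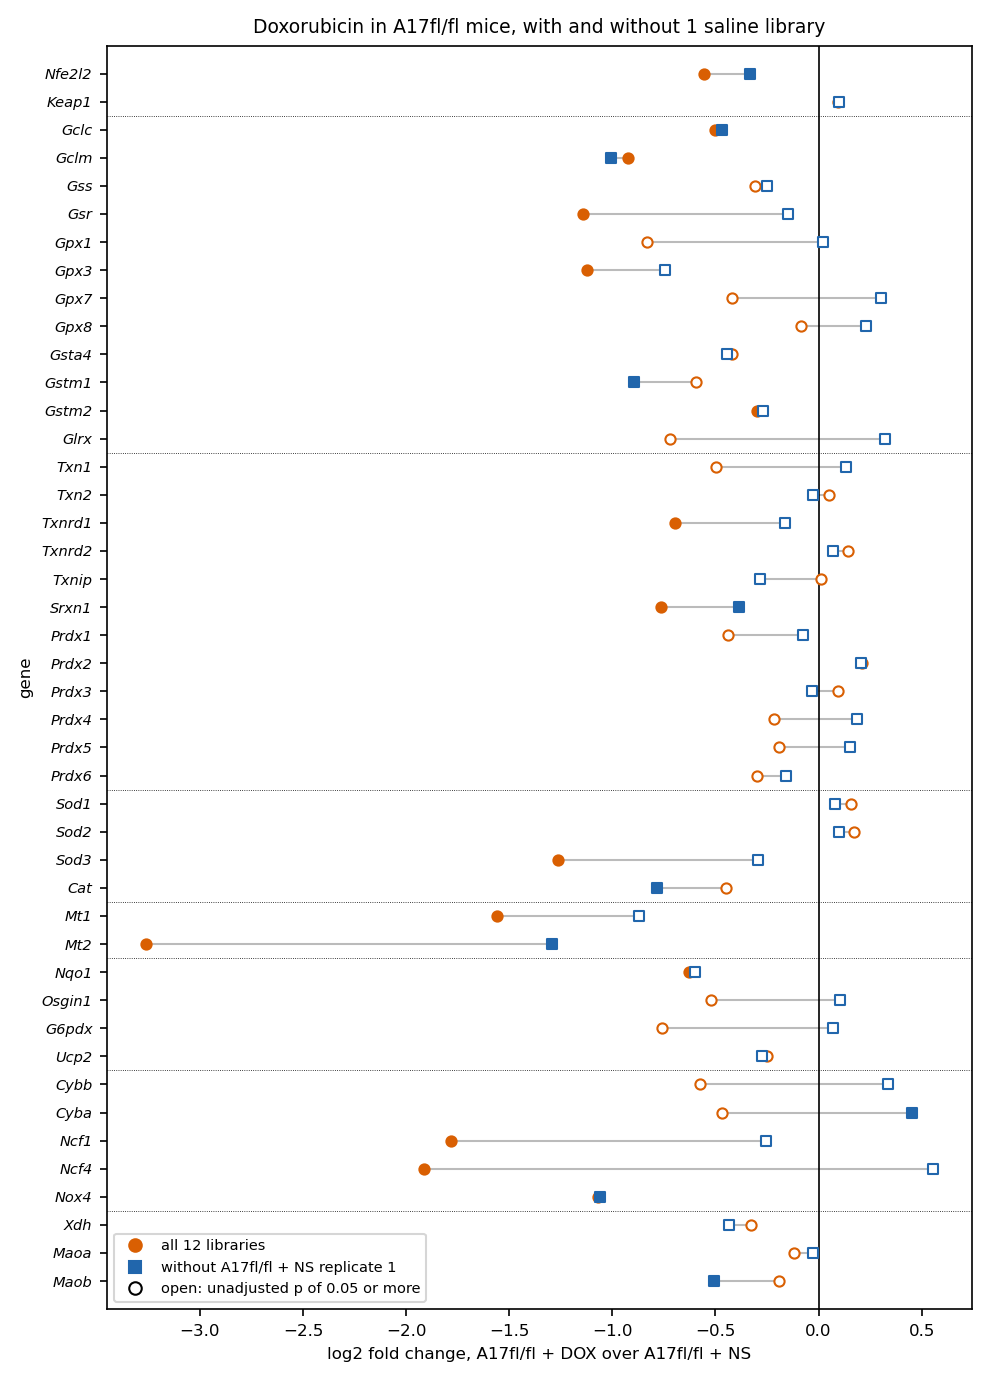
Log2 fold change of A17fl/fl + DOX over A17fl/fl + NS for the 44 genes, fitted to all 12 libraries (orange circles) and without A17fl/fl + NS replicate 1 (blue squares). Filled symbols have an unadjusted p under 0.05; 36 orange symbols lie left of 0, and Mt2 moves from -3.26 to -1.29 while Gclc, Gclm, Nqo1 and Nox4 stay near their place.

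In A17α-MHCKO mice, where all 3 saline libraries lay with the rest, doxorubicin left the set near its saline level. The median log2 fold change was 0.05, beside 0.00 for all tested genes. Gpx3 alone met the limits, lower after doxorubicin, beside 0.658% of all tested genes, 0.286% lower. At an unadjusted p under 0.05, 5 genes were higher (Nqo1, Prdx2, Prdx6, Sod2 and Txn2) and 1 lower (Gpx3), beside 3.97% higher and 2.44% lower, 6.42% in all, of the tested genes. The groups did not overlap in 9 genes (higher in Cyba, Glrx, Gsta4, Nqo1, Prdx2, Prdx6 and Txn2, lower in Gpx3 and Txnrd1), beside 16.9% of all tested genes, 9.16% higher and 7.79% lower. In the fit without the odd library, which is in neither of these groups, 6 genes were higher and 2 lower at an unadjusted p under 0.05, beside 11.5%, and Gpx3 alone met the limits, beside 0.878%. The effects in the 2 genotypes, which share no library, were both negative in 17 genes, both positive in 7, negative in A17fl/fl and positive in A17α-MHCKO mice in 19, and the other way round in 1. Without the odd library these counts were 12, 11, 15 and 6.

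Between the genotypes, more of the set was called after saline than after doxorubicin. In A17α-MHCKO + NS against A17fl/fl + NS, 6 genes met the limits, all lower in the knockout (Glrx, Mt1, Mt2, Ncf1, Osgin1 and Sod3), beside 2.99% of all tested genes, 2.32% lower. At an unadjusted p under 0.05, 15 were lower and 0 higher, beside 6.53% lower and 3.61% higher, 10.1% in all. The levels did not overlap in 9 genes, 8 lower and 1 higher, beside 10.9% of all tested genes, 5.34% lower and 5.52% higher. This comparison and that of doxorubicin in A17fl/fl mice use the same 3 control libraries. Without A17fl/fl + NS replicate 1, 0 genes met the limits, beside 1.55% of all tested genes, and 9 were lower and 3 higher at an unadjusted p under 0.05, beside 10.2%. In A17α-MHCKO + DOX against A17fl/fl + DOX, which does not use those controls, 0 genes met the limits and only Txn2 had an unadjusted p under 0.05 in the quasi-likelihood test, beside 0.205% and 2.7% of all tested genes, 1.52% higher and 1.19% lower by the latter. The levels did not overlap in 8 genes, higher in the knockout in Txn2, Prdx1, Prdx2, Prdx6, Mt1 and Mt2 and lower in Txnrd1 and Sod3, beside 14.1% of all tested genes, 6.96% higher and 7.13% lower. Without A17fl/fl + NS replicate 1, Mt2 met the limits, beside 0.244%, and Mt2, Prdx1 and Txn2 had an unadjusted p under 0.05, beside 5.85%. DESeq2 also left 1 of the 44 at an unadjusted p under 0.05 there, and the likelihood ratio test 0. The log2 fold change was positive in 34 of the 44 (77.3%), beside 51.1% of all tested genes. The median was 0.13, beside 0.01 for all tested genes.

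Of the regulators, Nfe2l2 was highest in the saline-treated floxed mice. Nfe2l2 was at 124, 84.8 and 79.3 CPM in A17fl/fl + NS mice, at 75.1, 58.7 and 62.5 in A17fl/fl + DOX mice, at 58.2, 65.2 and 72.1 in A17α-MHCKO + NS mice and at 61.4, 62.7 and 60.5 in A17α-MHCKO + DOX mice. All 3 A17fl/fl + NS mice lay above the other 9. Nfe2l2 was lower after doxorubicin in A17fl/fl mice (log2 fold change -0.56 ± 0.18 (SE), unadjusted p = 0.00896) and lower in the saline-treated knockout (log2 fold change -0.56 ± 0.18 (SE), unadjusted p = 0.00848). Without the odd library the 2 differences were -0.33 ± 0.13 (SE, unadjusted p = 0.0304) and -0.33 ± 0.13 (SE, unadjusted p = 0.0289). Keap1, which encodes the inhibitor, kept to a narrow range. Keap1 was at 62.8, 63.7 and 60.1 CPM in A17fl/fl + NS mice, at 68, 65.3 and 66.2 in A17fl/fl + DOX mice, at 58, 62.7 and 60.2 in A17α-MHCKO + NS mice and at 72.4, 65.2 and 59.7 in A17α-MHCKO + DOX mice. Keap1 did not overlap between the floxed groups and was the higher after doxorubicin, by a log2 fold change of 0.10 ± 0.11 (SE, unadjusted p = 0.395), and none of the 7 comparisons gave an unadjusted p under 0.05 for Keap1.

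Glutathione is made in the steps catalysed by glutamate-cysteine ligase, whose catalytic and modifier subunits are encoded by Gclc and Gclm, and by glutathione synthetase (Gss). Gclc was at 21.2, 20.6 and 18.5 CPM in A17fl/fl + NS mice, at 14.5, 12.6 and 15.5 in A17fl/fl + DOX mice, at 13.7, 13.1 and 16 in A17α-MHCKO + NS mice and at 13, 14.5 and 11.9 in A17α-MHCKO + DOX mice. Again all 3 saline-treated floxed mice lay above the other 9, with a log2 fold change of -0.50 ± 0.14 (SE, unadjusted p = 0.00487) in A17fl/fl mice given doxorubicin and of -0.49 ± 0.14 (unadjusted p = 0.00546) for the knockout after saline. Leaving out the odd library changed these to -0.47 (unadjusted p = 0.0102) and -0.46 (unadjusted p = 0.0115). Gclm was at 34, 35.7 and 45.9 CPM in A17fl/fl + NS mice, at 31.6, 16.1 and 13.4 in A17fl/fl + DOX mice, at 27.2, 15.7 and 34.4 in A17α-MHCKO + NS mice and at 12.6, 24.2 and 12.9 in A17α-MHCKO + DOX mice. The floxed saline mice were above the floxed doxorubicin mice without overlap, while the knockout groups overlapped. Over both genotypes the log2 fold change of doxorubicin for Gclm was -0.78 ± 0.27 (SE, unadjusted p = 0.0134). Gss gave no unadjusted p under 0.05 in any comparison and ranged from 11 to 18.2 CPM.

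Gpx3, the glutathione peroxidase secreted into plasma, was lower after doxorubicin in both genotypes, and of the 44 genes it was the only one to meet the limits in each. Gpx3 was at 539.6, 403 and 165 CPM in A17fl/fl + NS mice, at 218, 155 and 135 in A17fl/fl + DOX mice, at 626, 298 and 423 in A17α-MHCKO + NS mice and at 223, 126 and 172 in A17α-MHCKO + DOX mice. In A17α-MHCKO mice the groups did not overlap. In A17fl/fl mice they did, since 1 saline mouse, replicate 3, lay at the level of the treated mice. The log2 fold change was -1.37 ± 0.41 (SE, unadjusted p = 0.00629) in A17α-MHCKO mice, -1.12 ± 0.41 (unadjusted p = 0.0183) in A17fl/fl mice and -1.25 ± 0.29 (unadjusted p = 0.00114) over both, a 2.37-fold lower level. Its adjusted p over both genotypes was 0.24 in edgeR's quasi-likelihood test with Benjamini-Hochberg adjustment. Without the odd library the fold change in A17fl/fl mice was -0.75 (unadjusted p = 0.0818) and that over both -1.06 (unadjusted p = 0.00196). The interaction, -0.25 ± 0.57 (SE), had an unadjusted p of 0.672. In the order of the Gpx3 values, the atrial sum of the A17fl/fl libraries was 1021, 7270 and 332.5 CPM after saline. Nppa alone made 1020, 4199 and 330.7 CPM of these. After doxorubicin the atrial sum was 4786, 2464 and 1686 CPM. It was 3864 to 8361 CPM in A17α-MHCKO + NS and 1803 to 3990 CPM in A17α-MHCKO + DOX mice; the part of atrial tissue in the Gpx3 levels was not tested.

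Gsr, glutathione reductase, which returns oxidised glutathione to its reduced form with NADPH, was raised in a single mouse. Gsr was at 108, 26.4 and 27.8 CPM in A17fl/fl + NS mice, at 24.7, 25.8 and 23.2 in A17fl/fl + DOX mice, at 34.1, 24.1 and 26.8 in A17α-MHCKO + NS mice and at 28.1, 30.3 and 24.7 in A17α-MHCKO + DOX mice. Its log2 fold change of -1.14 ± 0.44 (SE, unadjusted p = 0.025) after doxorubicin in A17fl/fl mice came to -0.15 (unadjusted p = 0.368) without that mouse. The same held for Glrx, glutaredoxin, which removes glutathione from protein thiols. Glrx was at 60.3, 15.7 and 13.1 CPM in A17fl/fl + NS mice, at 18.9, 24.1 and 11.1 in A17fl/fl + DOX mice, at 13.5, 13.5 and 13.5 in A17α-MHCKO + NS mice and at 18.5, 22.1 and 13.7 in A17α-MHCKO + DOX mice. Its difference between the genotypes after saline was -1.14 ± 0.50 (SE, unadjusted p = 0.0438) with, and -0.09 (unadjusted p = 0.748) without A17fl/fl + NS replicate 1.

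The glutathione S-transferases, which couple glutathione to electrophiles, behaved differently from these. Gsta4 was at 57.4, 40.4 and 78.3 CPM in A17fl/fl + NS mice, at 44.5, 42.2 and 44.9 in A17fl/fl + DOX mice, at 40.9, 36.4 and 38.5 in A17α-MHCKO + NS mice and at 58.8, 43.5 and 48.8 in A17α-MHCKO + DOX mice. The A17α-MHCKO + DOX mice lay above the A17α-MHCKO + NS mice without overlap, and the knockout was lower than the floxed mice after saline (log2 fold change -0.60 ± 0.20 (SE), unadjusted p = 0.0128). Without the odd library the latter was -0.62 (unadjusted p = 0.0179). Gstm2 was at 82.5, 76.6 and 76.7 CPM in A17fl/fl + NS mice, at 71.2, 66.2 and 54.1 in A17fl/fl + DOX mice, at 57.5, 64.7 and 60 in A17α-MHCKO + NS mice and at 69.7, 66.7 and 61.8 in A17α-MHCKO + DOX mice. Every floxed saline mouse lay above the other 9, by a log2 fold change of -0.30 ± 0.13 (SE, unadjusted p = 0.0366) after doxorubicin and of -0.37 ± 0.13 (unadjusted p = 0.0132) for the knockout. With the odd library left out they were -0.27 (unadjusted p = 0.0662) and -0.34 (unadjusted p = 0.0256). Gstm1, named here after its values were seen, was lowest in the odd library at 107.8 CPM and ranged from 118.7 to 275.9 CPM in the rest. Its fold change in A17fl/fl mice was -0.60 (unadjusted p = 0.0545) with and -0.89 (unadjusted p = 0.000499) without that library. Gstm1 and Gstm2 are close paralogs and fragments may be shared between them. The remaining peroxidases, Gpx1, Gpx7 and Gpx8, gave no unadjusted p under 0.05 in the fit to all libraries, and each was highest in A17fl/fl + NS replicate 1. Without that library Gpx7 was higher in the knockout after saline (0.61 ± 0.22 (SE, unadjusted p = 0.0198)), where the fit to all libraries gave -0.12.

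Thioredoxin reductase (Txnrd1 in the cytosol, Txnrd2 in mitochondria) and sulfiredoxin (Srxn1, which rescues overoxidised peroxiredoxins) serve the peroxiredoxin cycle. Txnrd1 was at 161, 65.2 and 71.6 CPM in A17fl/fl + NS mice, at 67, 58.3 and 58.6 in A17fl/fl + DOX mice, at 57.3, 55.4 and 64.7 in A17α-MHCKO + NS mice and at 53.5, 55.4 and 52.4 in A17α-MHCKO + DOX mice. Replicate 1 of A17fl/fl + NS stood far above the rest, and the A17α-MHCKO + NS mice lay below the A17fl/fl + NS mice without overlap (log2 fold change -0.75 ± 0.28 (SE), unadjusted p = 0.0209), a difference of -0.21 (unadjusted p = 0.098) without replicate 1. After doxorubicin in A17fl/fl mice the log2 fold change of Txnrd1 was -0.70 (unadjusted p = 0.0291) and -0.16 (unadjusted p = 0.195) without replicate 1. Srxn1 was at 58.9, 26.5 and 35 CPM in A17fl/fl + NS mice, at 27.4, 23.1 and 20.3 in A17fl/fl + DOX mice, at 23.2, 19.6 and 25.9 in A17α-MHCKO + NS mice and at 22.8, 24.2 and 24.6 in A17α-MHCKO + DOX mice. For Srxn1 the corresponding values were -0.77 ± 0.25 (SE, unadjusted p = 0.00998) and -0.39 (unadjusted p = 0.0451), and between the genotypes after saline -0.81 (unadjusted p = 0.00717) and -0.43 (unadjusted p = 0.0283).

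Among the peroxiredoxins, which reduce hydrogen peroxide, Prdx6 had the smallest p for a difference between the genotypes. Prdx6 was at 174, 118 and 147 CPM in A17fl/fl + NS mice, at 124, 119 and 114 in A17fl/fl + DOX mice, at 113, 99 and 95 in A17α-MHCKO + NS mice and at 138, 139 and 139 in A17α-MHCKO + DOX mice. The 3 A17α-MHCKO + DOX mice lay closely together and above all A17α-MHCKO + NS mice (log2 fold change 0.44 ± 0.15 (SE), unadjusted p = 0.0122), and the A17α-MHCKO + NS mice lay below all A17fl/fl + NS mice (log2 fold change -0.52 ± 0.15 (SE), unadjusted p = 0.00473). In A17fl/fl mice the fold change was -0.30 ± 0.15 (SE, unadjusted p = 0.066). Without the odd library Prdx6 came to -0.37 (unadjusted p = 0.0147) between the genotypes after saline. After doxorubicin in A17fl/fl mice it then came to -0.16 (unadjusted p = 0.249). Prdx2 was at 224, 225 and 222 CPM in A17fl/fl + NS mice, at 254, 267 and 255 in A17fl/fl + DOX mice, at 260.4, 250 and 233 in A17α-MHCKO + NS mice and at 352, 282 and 269.7 in A17α-MHCKO + DOX mice. Prdx2 was above the saline mice in every doxorubicin mouse of its genotype, with a log2 fold change of 0.25 ± 0.09 (SE, unadjusted p = 0.0200) over both genotypes. Txn2 was at 55.5, 63.2 and 66.8 CPM in A17fl/fl + NS mice, at 66.2, 63.5 and 62.5 in A17fl/fl + DOX mice, at 62.6, 59.9 and 60.6 in A17α-MHCKO + NS mice and at 102, 75.9 and 67.2 in A17α-MHCKO + DOX mice. Mitochondrial thioredoxin was thus higher after doxorubicin in the knockout without overlap (log2 fold change 0.42 ± 0.15 (SE), unadjusted p = 0.0178), in which replicate 1 was the furthest, and higher than in the A17fl/fl + DOX mice (log2 fold change 0.35 ± 0.15 (SE), unadjusted p = 0.041). The latter came to 0.16 (unadjusted p = 0.223) without replicate 1 of A17α-MHCKO + DOX, and its unadjusted p was under 0.05 in 10 of 20 alternative settings.

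The 7 genes of this group with no unadjusted p under 0.05 in the fit to all libraries were Txn1, Txnrd2, Prdx1, Prdx3, Prdx4, Prdx5 and Txnip, the inhibitor of thioredoxin. Txnip spanned 280 to 904 CPM, with the lowest value in A17fl/fl + NS replicate 1. Prdx3, the mitochondrial peroxiredoxin, spanned 176 to 297 CPM with the same library lowest.

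Of the superoxide dismutases, the mitochondrial Sod2 was higher after doxorubicin and the extracellular Sod3 lower. Sod2 was at 424, 519 and 474 CPM in A17fl/fl + NS mice, at 529, 569 and 498 in A17fl/fl + DOX mice, at 483, 403 and 394 in A17α-MHCKO + NS mice and at 668, 558 and 482 in A17α-MHCKO + DOX mice. The knockout groups overlapped in a single value, and the log2 fold change was 0.42 ± 0.16 (SE, unadjusted p = 0.0217) in A17α-MHCKO mice, 0.17 (unadjusted p = 0.293) in A17fl/fl mice and 0.29 ± 0.11 (unadjusted p = 0.0216) over both. The summed cardiomyocyte markers moved with Sod2, Prdx2 and Txn2 in the knockout: 39490 to 44250 CPM in the DOX and 27890 to 35150 CPM in the NS mice, with 4 of the 8 markers higher at an unadjusted p under 0.05 and 0 lower. The 8 did not move as one. Actc1 was at 8335 to 10240 CPM in the DOX and 3487 to 6018 CPM in the NS mice. Ryr2 was lower without overlap, at 671.2 to 906.6 against 955.7 to 1320 CPM, and Myh6 overlapped. The part of the shift of the sum in the 3 genes was not tested. Sod3 was at 338, 94.5 and 79.3 CPM in A17fl/fl + NS mice, at 71.4, 72.8 and 69.4 in A17fl/fl + DOX mice, at 62, 93.9 and 74.1 in A17α-MHCKO + NS mice and at 52.9, 60.6 and 67.3 in A17α-MHCKO + DOX mice. Sod3 was below the saline level in every treated floxed mouse (log2 fold change -1.26 ± 0.44 (SE), unadjusted p = 0.0152), but mainly through replicate 1: without it the difference was -0.29 ± 0.17 (SE, unadjusted p = 0.112). Over both genotypes and without that library it was -0.32 ± 0.11 (SE, unadjusted p = 0.0167). Sod1 and Cat gave no unadjusted p under 0.05 in the fit to all libraries. Cat, catalase, named after its values were seen, measured 112.7, 162.4 and 409.2 CPM in A17fl/fl + NS hearts and 133.3 to 234.5 CPM in the other 9. Without replicate 1 catalase differed in treated floxed mice by -0.78 ± 0.32 (SE, unadjusted p = 0.034). This difference rested on saline replicate 3, since replicate 2 lay within the 153.3 to 181.5 CPM of the A17fl/fl + DOX mice.

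The metallothioneins, small cysteine-rich proteins that bind zinc and copper and scavenge oxidants, included the gene with the largest change among the 44, Mt2. Mt1 was at 781, 212 and 335 CPM in A17fl/fl + NS mice, at 176, 157 and 117 in A17fl/fl + DOX mice, at 229.6, 75.6 and 206 in A17α-MHCKO + NS mice and at 346, 197 and 204 in A17α-MHCKO + DOX mice. Mt2 was at 462, 43.3 and 51.5 CPM in A17fl/fl + NS mice, at 20.4, 19.4 and 18.3 in A17fl/fl + DOX mice, at 45.1, 9.16 and 44.8 in A17α-MHCKO + NS mice and at 50.5, 33.1 and 32.6 in A17α-MHCKO + DOX mice. In A17fl/fl mice every treated mouse lay below every saline mouse for both genes. Replicate 1 was far above the other saline mice of its group, and the treated mice were below those as well. In A17α-MHCKO mice the groups overlapped, since replicate 2 of the saline group had the lowest level of all 12 in both genes. The log2 fold change of doxorubicin in A17fl/fl mice was -3.26 ± 0.87 (SE, unadjusted p = 0.0031) for Mt2 and -1.56 ± 0.50 (unadjusted p = 0.00905) for Mt1. Without replicate 1 it was -1.29 (unadjusted p = 0.0208) for Mt2 and -0.87 (unadjusted p = 0.0568) for Mt1. After doxorubicin the knockout mice were above the floxed mice without overlap in both, with a mean of 38.7 against 19.4 CPM for Mt2 (unadjusted p = 0.245) and a log2 fold change of 0.73 ± 0.49 (SE, unadjusted p = 0.161) for Mt1. The genes are neighbours and close paralogs, so fragments may be shared between them.

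Since Mt1 and Mt2 moved together, their promoters are shown as well. Metallothionein genes are textbook targets of the zinc sensor MTF1, which binds metal response elements. The core of this element, TGCACNC or TGCGCNC on either strand, occurred in a window of 12 of the 36 genes (33.3%) and of 28.2% of all genes with a window. Mt2 had 4 matches in its window, and 4 or more were held by 0.588% of the 27025 genes. Mt1 had 3, as did Gclm, and G6pdx had 2. The stretches before the start are given 5′ to 3′ on the plus strand of GRCm38.p6 from RefSeq, with the matches, or their reverse complements, in capitals: 1 in Mt1 (chr8:94178839-94179088) and 3 in Mt2 (chr8:94172368-94172617), whose other matches lie after the start.
Mt1: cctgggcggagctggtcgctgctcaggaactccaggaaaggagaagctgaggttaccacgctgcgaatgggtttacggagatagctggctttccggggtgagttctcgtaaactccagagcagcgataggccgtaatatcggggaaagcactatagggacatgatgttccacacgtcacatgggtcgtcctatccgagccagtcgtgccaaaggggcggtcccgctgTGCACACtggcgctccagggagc
Mt2: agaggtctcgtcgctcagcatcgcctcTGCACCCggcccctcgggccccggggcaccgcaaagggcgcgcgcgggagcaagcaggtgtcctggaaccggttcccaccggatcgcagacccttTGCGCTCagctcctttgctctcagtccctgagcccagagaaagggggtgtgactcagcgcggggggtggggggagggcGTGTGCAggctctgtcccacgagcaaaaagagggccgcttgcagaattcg

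Nqo1, the quinone reductase that transfers electrons in pairs and serves as the reference target of NRF2, had fold changes of opposite sign in the genotypes. Nqo1 was at 57.6, 32.1 and 75.4 CPM in A17fl/fl + NS mice, at 34.6, 31.7 and 40.4 in A17fl/fl + DOX mice, at 26.8, 28.6 and 30.2 in A17α-MHCKO + NS mice and at 53, 38 and 45.2 in A17α-MHCKO + DOX mice. The A17α-MHCKO + DOX mice lay above all A17α-MHCKO + NS mice (log2 fold change 0.67 ± 0.25 (SE), unadjusted p = 0.0224), and the A17α-MHCKO + NS mice lay below all A17fl/fl + NS mice (log2 fold change -0.95 ± 0.25 (SE), unadjusted p = 0.0032). Without the odd library the latter was -0.92 (unadjusted p = 0.00701). In A17fl/fl mice the groups overlapped, with a spread of 32.1 to 75.4 CPM among the saline mice, and the log2 fold change was -0.63 ± 0.25 (SE, unadjusted p = 0.0299). Here the highest saline mouse was replicate 3 and not replicate 1, without which the fold change was -0.60 (unadjusted p = 0.0543). G6pdx was at 44.6, 14 and 12.7 CPM in A17fl/fl + NS mice, at 14, 16.4 and 11.8 in A17fl/fl + DOX mice, at 8.15, 14.8 and 13.2 in A17α-MHCKO + NS mice and at 14.8, 12.4 and 14.2 in A17α-MHCKO + DOX mice. G6pdx, which supplies NADPH from glucose 6-phosphate, was thus set apart by replicate 1, and the difference between the genotypes after saline was -0.98 (unadjusted p = 0.0394) with and -0.14 (unadjusted p = 0.55) without it. Osgin1 was at 10.6, 4.49 and 3.57 CPM in A17fl/fl + NS mice, at 5.03, 2.89 and 5.1 in A17fl/fl + DOX mice, at 2.28, 3.32 and 3.26 in A17α-MHCKO + NS mice and at 3.9, 1.69 and 3.16 in A17α-MHCKO + DOX mice. For Osgin1, an oxidative stress-induced growth inhibitor, those values were -1.07 (unadjusted p = 0.0309) and -0.44 (unadjusted p = 0.241). Ucp2, a mitochondrial carrier, spanned 83.6 to 154 CPM with no unadjusted p under 0.05.

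**Figure D3:**
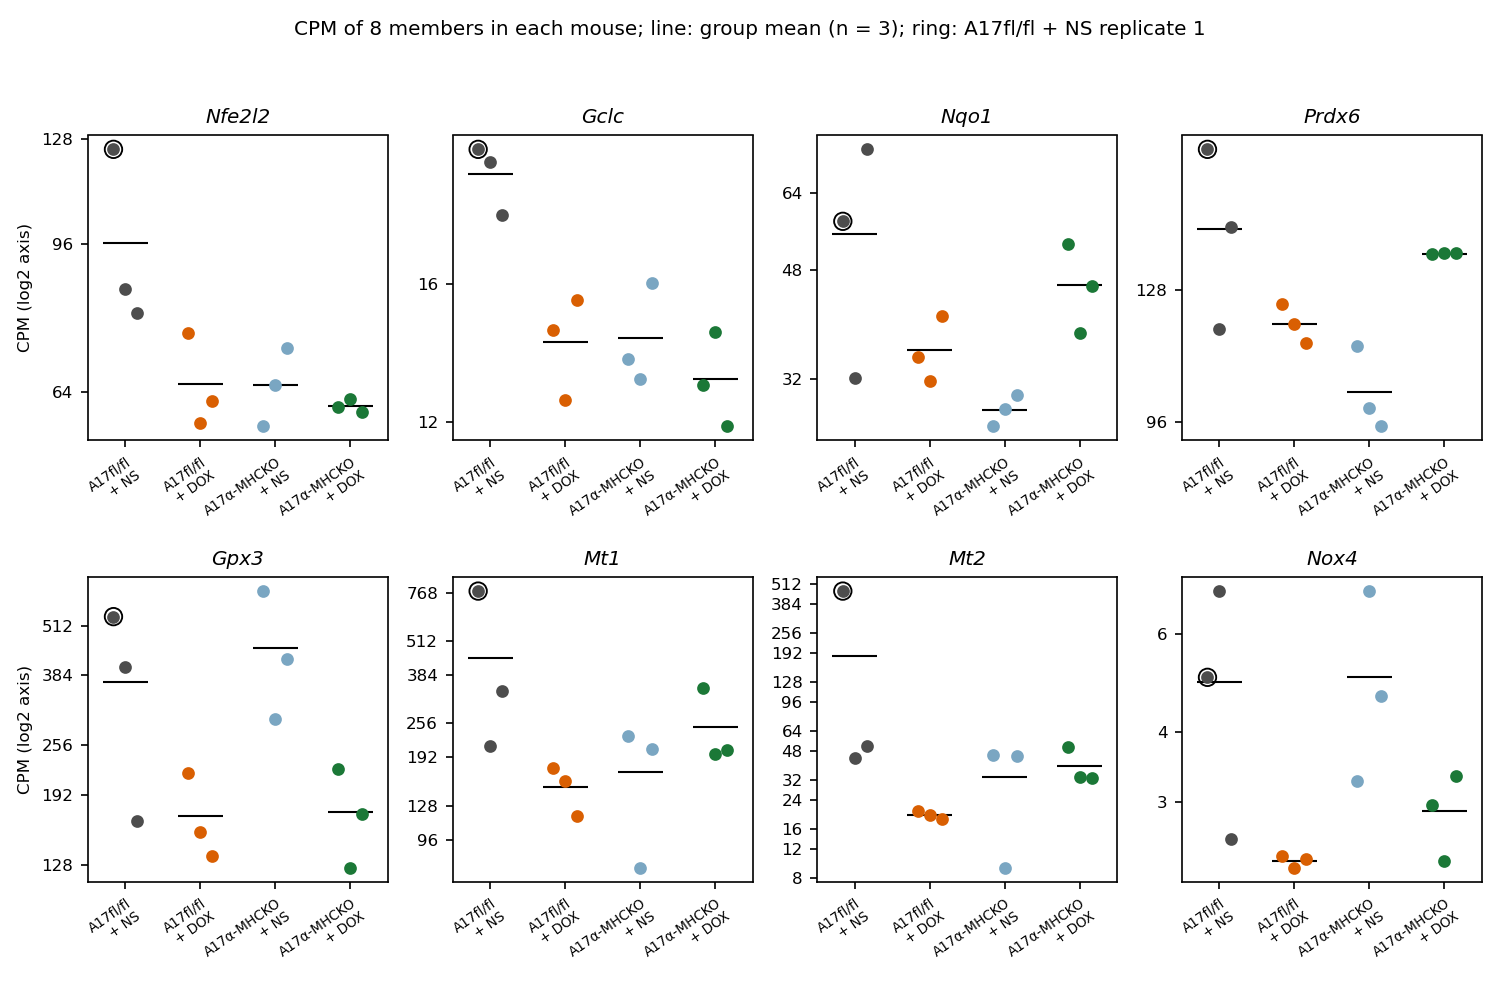
CPM of 8 genes in each mouse (points, log2 axis, 3 mice per group), with the arithmetic group mean as a line and A17fl/fl + NS replicate 1 ringed. All A17fl/fl + NS mice lie above the other groups in Nfe2l2 and Gclc; Gpx3 is lower in the DOX groups of both genotypes; Nqo1 and Prdx6 are lowest in A17α-MHCKO + NS and higher in A17α-MHCKO + DOX mice; Mt1 and Mt2 are lower in A17fl/fl + DOX than in A17fl/fl + NS mice.

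On the oxidase side, all 8 genes had a negative log2 fold change after doxorubicin in A17fl/fl mice, with a median of -0.52. In A17α-MHCKO mice 5 of the 8 had a positive one, with a median of 0.02. Of all tested genes, 44.5% had a positive one in A17fl/fl mice and 50.5% in A17α-MHCKO mice. The phagocyte subunits were set apart by a single saline mouse. Cybb was at 83.9, 15.9 and 30 CPM in A17fl/fl + NS mice, at 28.6, 31.3 and 27.4 in A17fl/fl + DOX mice, at 28.2, 38.1 and 32.2 in A17α-MHCKO + NS mice and at 28.1, 23.9 and 29.5 in A17α-MHCKO + DOX mice. Cyba was at 120.5, 34.4 and 30.8 CPM in A17fl/fl + NS mice, at 45, 48.8 and 40.6 in A17fl/fl + DOX mice, at 35.4, 47.3 and 33.4 in A17α-MHCKO + NS mice and at 50.1, 49.8 and 47.6 in A17α-MHCKO + DOX mice. Replicate 1 of A17fl/fl + NS was far above any other library in both; without it, the treated floxed mice overlapped the saline mice in Cybb and lay above them in Cyba, as the treated knockout mice did. Ncf1 was at 99.9, 15.2 and 14.8 CPM in A17fl/fl + NS mice, at 15.7, 11.5 and 10.6 in A17fl/fl + DOX mice, at 12.9, 14.2 and 14.9 in A17α-MHCKO + NS mice and at 16.7, 13 and 15.7 in A17α-MHCKO + DOX mice. Ncf4 was at 33.5, 2.39 and 2.19 CPM in A17fl/fl + NS mice, at 3.58, 4.12 and 2.42 in A17fl/fl + DOX mice, at 2.96, 5.36 and 3.84 in A17α-MHCKO + NS mice and at 3.59, 2.99 and 4.43 in A17α-MHCKO + DOX mice. Here too replicate 1 was the highest by far, and without it the treated floxed mice overlapped the saline mice in Ncf1 and lay just above them in Ncf4. With it, the log2 fold change in A17fl/fl mice was -1.78 ± 0.60 (SE, unadjusted p = 0.013) for Ncf1, -1.91 ± 0.85 (unadjusted p = 0.0451) for Ncf4, -0.57 (unadjusted p = 0.217) for Cybb and -0.47 (unadjusted p = 0.283) for Cyba. Without it, Ncf1 came to -0.25 (unadjusted p = 0.191), and the sign turned in the other 3: 0.55 (unadjusted p = 0.115) for Ncf4, 0.34 (unadjusted p = 0.171) for Cybb and 0.45 (unadjusted p = 0.0139) for Cyba. The 6 neutrophil markers that could be tested were all lower in A17fl/fl + DOX than in A17fl/fl + NS mice at an unadjusted p under 0.05, with S100a8 at 714.1 and S100a9 at 909.5 CPM in that library, and 1 of the 10 macrophage markers was lower. The part of these cells in the 4 subunits was not tested beyond leaving that library out.

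Nox4, the oxidase of cardiomyocytes and vessel walls, behaved otherwise. Nox4 was at 5.02, 7.18 and 2.57 CPM in A17fl/fl + NS mice, at 2.39, 2.28 and 2.36 in A17fl/fl + DOX mice, at 3.27, 7.17 and 4.65 in A17α-MHCKO + NS mice and at 2.96, 2.34 and 3.34 in A17α-MHCKO + DOX mice. The A17fl/fl + DOX mice lay close to each other and below all A17fl/fl + NS mice, with a log2 fold change of -1.07 ± 0.38 (SE, unadjusted p = 0.0155) and of -1.06 (unadjusted p = 0.0258) without the odd library. In A17α-MHCKO mice it was -0.81 ± 0.37 (SE, unadjusted p = 0.0514) and over both genotypes -0.94 ± 0.26 (SE, unadjusted p = 0.00431). Its level stayed under the FPKM limit, so it could not be called. The highest Nox4 levels, 7.18 and 7.17 CPM, were in the replicate 2 libraries of A17fl/fl + NS and A17α-MHCKO + NS, whose atrial sums were 7270 and 6454 CPM and whose mesothelial marker sums, 132.2 and 82.3 CPM, were the highest of the 12; the part of such tissue in Nox4 was not tested. Of the other oxidases, Xdh (xanthine dehydrogenase), Maoa and Maob (monoamine oxidases) gave no unadjusted p under 0.05 in the fit to all libraries. Maob, named after its values were seen, was at 27.3 CPM in the odd library and at 35.3 to 66.7 CPM in the rest, and without that library it was lower after doxorubicin in A17fl/fl mice (-0.51 ± 0.14 (SE, unadjusted p = 0.0037)).

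The difference between the effects of doxorubicin in the genotypes was tested by the interaction, positive where the effect was higher in A17α-MHCKO than in A17fl/fl mice. It was positive in 40 of the 44 genes (90.9%), beside 56.3% of all tested genes. The median was 0.44, beside 0.06 for all tested genes. By the limits 4 genes were called, all positive (Mt1, Mt2, Nqo1 and Ncf1), beside 2.13% of all tested genes, 1.47% positive, and 8 had an unadjusted p under 0.05, all positive, beside 5.99%, 3.5% positive and 2.49% negative. Nqo1 led with 1.30 ± 0.36 (SE, unadjusted p = 0.00382), followed by Prdx6 with 0.74 ± 0.21 (unadjusted p = 0.0044). Without the odd library the 2 were 1.27 ± 0.38 (SE, unadjusted p = 0.00609) and 0.60 ± 0.17 (SE, unadjusted p = 0.0056), 32 of the 44 were positive, the median was 0.14, 3 genes met the limits (Mt1, Mt2 and Nqo1, beside 1.71% of all tested genes), and 7 had an unadjusted p under 0.05, beside 7.13%. With Benjamini-Hochberg adjustment the smallest adjusted p among the 44 in edgeR's quasi-likelihood test, fitted to all libraries, was 0.828.

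**Figure D4:**
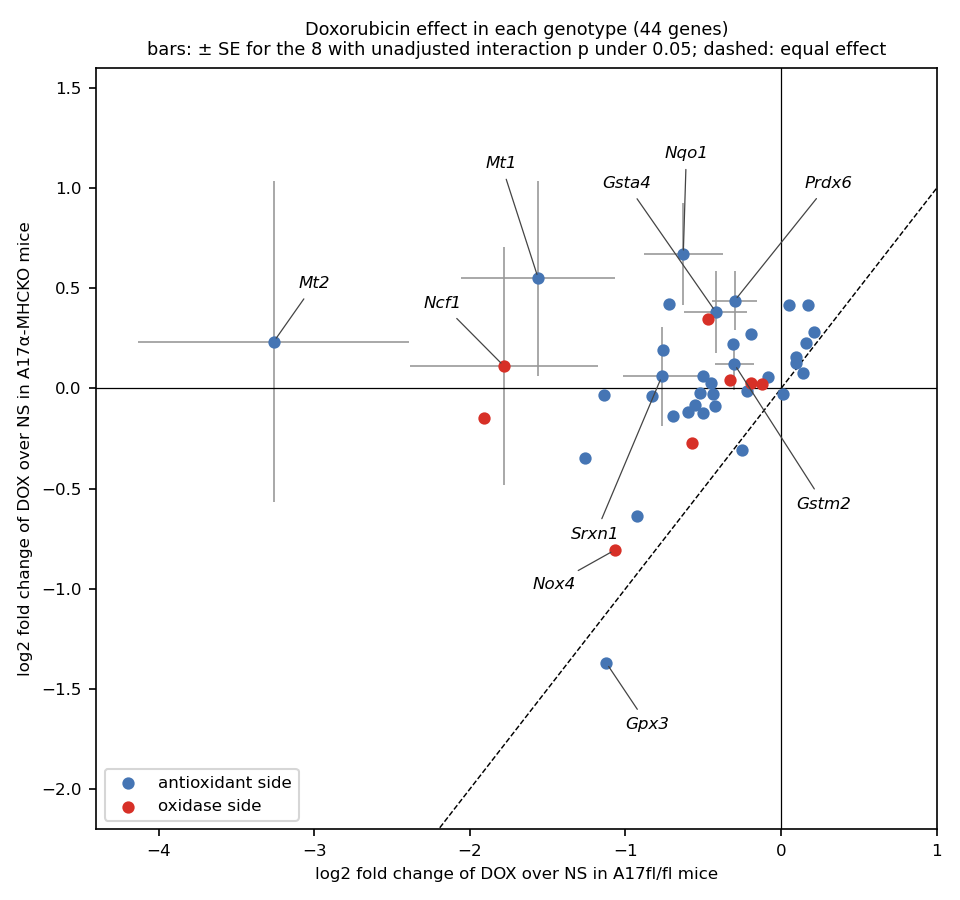
Log2 fold change of doxorubicin over saline in A17fl/fl mice (x axis) and in A17α-MHCKO mice (y axis) for the 36 genes of the antioxidant side (blue) and the 8 of the oxidase side (red), with ± SE bars for the 8 genes whose interaction had an unadjusted p under 0.05. In 40 of the 44 genes the point lies above the dashed line of equal effects; Gpx3 and Nox4 are low on both axes.

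Over both genotypes, 6 mice against 6, doxorubicin gave 2 genes by the limits, Gpx3 and Mt2, both lower, beside 0.708% of all tested genes, 0.509% lower. At an unadjusted p under 0.05, 3 were higher (Prdx2, Sod2 and Txn2) and 7 lower (Gclc, Gclm, Gpx3, Mt2, Nfe2l2, Nox4 and Sod3), beside 10.7%, 5.47% higher and 5.2% lower. Without the odd library Gpx3 alone met the limits, beside 0.512%, and 3 were higher and 8 lower, beside 15%. Gpx3 ran from 165.3 through a median of 413 to 625.7 CPM in the 6 saline mice and from 125.7 through 164 to 222.6 CPM in the 6 treated mice. No gene of the 44 was without overlap between all saline and all treated mice, beside 1.16% of all tested genes. Between the genotypes over both treatments 0 genes met the limits, beside 0.776% of all tested genes, and 6 were lower in the knockout at an unadjusted p under 0.05 (Gclc, Nfe2l2, Osgin1, Sod3, Srxn1 and Txnrd1), beside 6.65%, 3.89% lower. DESeq2 left 7 genes at an unadjusted p under 0.05 in that comparison, 6 lower and 1 higher. The odd library is among the floxed mice here too, and without it 0 met the limits, beside 0.311%, and 4 of the 44 were lower and 4 higher, beside 10.3%.

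A list of 62 further genes of the same pathways, of which 58 could be tested, was read in the same way. After doxorubicin in A17fl/fl mice 10 were lower and 1 higher at an unadjusted p under 0.05, beside 6.58% lower and 4.11% higher of all tested genes. The limits were met by 5 (Chac1, Gsta3, Hmox1, Maff and Mgst1, all lower), beside 2.82%. The median was -0.12, beside -0.04 for all tested genes. Mafk, a small MAF partner of NRF2, was at 80.7, 71.2 and 91.9 CPM in A17fl/fl + NS mice and at 41.9 to 60.4 CPM in the other 9, without overlap, and had the smallest p (log2 fold change -0.73 ± 0.15 (SE), unadjusted p = 0.000548). Hmox1, heme oxygenase, was at 369.8, 20.4 and 70.2 CPM in A17fl/fl + NS mice and at 12.2 to 20.5 CPM in the other 9 (log2 fold change -3.30 ± 0.78 (SE), unadjusted p = 0.0013). Chac1, which degrades glutathione, was at 6.06, 8.86 and 11.5 CPM in A17fl/fl + NS and at 2.14, 3.02 and 4.04 CPM in A17fl/fl + DOX mice (log2 fold change -1.52 ± 0.38 (SE), unadjusted p = 0.00205). Between the genotypes after saline, with the same controls, 11 were lower and 1 higher, beside 6.53% and 3.61% of all tested genes, led by Hmox1 (-3.34), Gsta3 (-1.44) and Mafk (-0.60), all without overlap. Without A17fl/fl + NS replicate 1 these counts were 14 lower and 3 higher after doxorubicin and 11 lower and 1 higher between the genotypes, each beside 10.2% of all tested genes in either direction. Hmox1 then came to -1.58 (unadjusted p = 0.00163) between the genotypes and to -1.54 ± 0.39 (SE, unadjusted p = 0.00197) after doxorubicin. The latter rested on replicate 3 of A17fl/fl + NS, since replicate 2, at 20.4 CPM, lay within the 12.2 to 20.5 CPM of the A17fl/fl + DOX mice. After doxorubicin Mafk came to -0.74 ± 0.16 (unadjusted p = 0.000865) and Chac1 to -1.74 ± 0.37 (unadjusted p = 0.000679).

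In A17α-MHCKO mice the same list lay slightly higher after doxorubicin. At an unadjusted p under 0.05, 5 were higher and 1 lower, beside 3.97% and 2.44% of all tested genes. In the fit without the odd library 9 were higher and 1 lower, beside 11.5% in either direction. The log2 fold change was positive in 43 of the 58, beside 50.5% of all tested genes, with a median of 0.11, beside 0.00. Rbx1, a subunit of the ligase that KEAP1 serves, was at 0.47 ± 0.18 (SE, unadjusted p = 0.0239). Gpx4, which reduces lipid peroxides, was at 0.43 ± 0.18 (unadjusted p = 0.0378) and Pgls, of the pentose phosphate pathway, at 0.40 ± 0.17 (unadjusted p = 0.0387). A17α-MHCKO + DOX replicate 1 was the highest of all 12 libraries in each, at 81.7, 273.7 and 59.7 CPM. Replicates 2 and 3 were at 60.4 and 54.2 CPM for Rbx1, 188.2 and 157.5 for Gpx4, and 43.8 and 46 for Pgls. The A17α-MHCKO + NS mice were at 45.1 to 48.2, 145.8 to 158.5 and 35.2 to 41.7 CPM, so Gpx4 overlapped. These values were not tested without that DOX library. Between the genotypes after doxorubicin 1 gene, Gstm7, had an unadjusted p under 0.05 (0.47 ± 0.21 (SE), unadjusted p = 0.0485), beside 2.7% of all tested genes. In the fit without the odd library Gstm7, Glrx3 and Msrb1, the latter named after its values were seen, were under it, beside 5.85%. The interaction was positive in the 8 genes with an unadjusted p under 0.05, beside 5.99% of all tested genes, led by Hmox1 (3.46 ± 1.05 (SE), unadjusted p = 0.0067), Gsta3 (1.55 ± 0.51, unadjusted p = 0.0103) and Mafk (0.65 ± 0.22, unadjusted p = 0.0111). The fit without the odd library gave 1.70 (unadjusted p = 0.00757), 1.52 (unadjusted p = 0.015) and 0.66 (unadjusted p = 0.0122). Of the genes under 0.05, 9 were then positive and 1 negative, beside 7.13%. Over both genotypes 7 were lower and 5 higher after doxorubicin, beside 5.2% and 5.47% of all tested genes (without the odd library 10 and 5, beside 15% in either direction), with Mafk (-0.40 ± 0.11, unadjusted p = 0.00324), Bach1, the competitor of NRF2 (-0.36 ± 0.10, unadjusted p = 0.0037), and Chac1 (-0.90 ± 0.27, unadjusted p = 0.00632) first by p. Between the genotypes over both treatments Hmox1 (-1.61), Gstm5 (0.35) and Glrx3 (0.25) had the smallest p. These were -0.73, 0.29 and 0.26 without the odd library.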

How the data were processed

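RNA of 12 mouse left ventricles, 3 per group, was sequenced as paired-end mRNA libraries by the study. The deposited raw counts are fragments per gene, and the deposited FPKM values are the authors' counts scaled by library and gene length. The submitters' processing notes name CASAVA 1.8, HISAT2, SAMtools 1.3.1, edgeR and GRCm39; whether counting used strand is not given in the sources used here, so reads of a gene and an antisense partner cannot be told apart.

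Samples were grouped by the genotype and treatment labels. The counts were taken into edgeR 4.0.16 (R 4.3.3): genes were filtered with filterByExpr (16101 of 53465 kept), libraries scaled by TMM, and all 12 libraries entered 1 quasi-likelihood fit with 4 group means, from which 7 comparisons were drawn. CPM is the count scaled to a common library size with the TMM factors. P-values were adjusted over all genes tested by Benjamini-Hochberg. The limits for a called gene (absolute log2 fold change over 1, unadjusted p under 0.05, a mean above 1 FPKM in either group) follow the study's methods. The SE of a log2 fold change is approximate, taken from its size and the F statistic. Total counts of 15950717 to 21725076 set the precision of low genes; the common dispersion was 0.0842. Alternatives were RLE and upper-quartile scaling, DESeq2 1.42.0, other count filters, the likelihood ratio test, a replicate block, groups fitted alone, an adjusted p, and each library left out.

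The 44 genes and all lists were chosen with earlier results of these data known. Values in every library are given for genes with an unadjusted p under 0.05 in any of the 7 comparisons and for Nfe2l2, Keap1, Nqo1, Cybb, Cyba, Ncf1, Ncf4 and Nox4 whatever their p; of the other pathway genes, the 3 with the smallest p under 0.05 per comparison are named. Promoter windows come from RefSeq on GRCm38.p6, another build than that of the counts, and were matched by symbol; no other coordinates are given. The sources name the mice as separate samples of a group and call the genotypes littermates, without saying which mice shared a litter.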

Additional observations from a re-analysis of the deposited data

Results flagged for a closer look

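In 8 genes the genotypes differed in the size of the doxorubicin effect at an unadjusted p under 0.05 in the interaction of edgeR's quasi-likelihood model, and in all 8 it was higher in A17α-MHCKO than in A17fl/fl mice. The adjusted p was 0.828 for each in the fit to all libraries, so none passed a correction over all genes tested there. Among 19 alternative settings Nqo1 had an adjusted p under 0.05 in 1 (0.0279, quasi-likelihood test with 1 library left out), and the others in 0. The difference in log2 fold change was 1.30 ± 0.36 (SE) for Nqo1, 0.74 ± 0.21 for Prdx6, 2.11 ± 0.69 for Mt1 and 3.49 ± 1.17 for Mt2. It was 0.80 ± 0.29 (SE) for Gsta4, 0.83 ± 0.35 for Srxn1, 0.42 ± 0.18 for Gstm2 and 1.89 ± 0.84 for Ncf1. Without A17fl/fl + NS replicate 1, Nqo1, Prdx6, Mt1, Mt2 and Gsta4 still had an unadjusted p under 0.05, with Mt1 at 1.42 and Mt2 at 1.53, whereas Srxn1 (0.45), Gstm2 (0.39) and Ncf1 (0.37) did not.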

How the results depend on the processing

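Leaving out 1 library at a time, the number of the 44 genes that met the limits ran from 2 (A17fl/fl + NS replicate 1 left out) to 10 (without A17fl/fl + NS replicate 3) after doxorubicin in A17fl/fl mice, from 0 (without replicate 1) to 11 (without A17fl/fl + NS replicate 2) between the genotypes after saline, from 3 to 9 (without A17fl/fl + NS replicate 3) in the interaction, from 1 to 2 after doxorubicin in A17α-MHCKO mice, from 0 to 1 between the genotypes after doxorubicin, from 1 to 4 after doxorubicin over both genotypes, and was 0 between the genotypes over both treatments. Without A17α-MHCKO + NS replicate 1 or 3 it was 2 and 3 between the genotypes after saline, without A17fl/fl + DOX replicate 2 or 3 it was 4 after doxorubicin in A17fl/fl mice, and without A17fl/fl + NS replicate 2 it was 7 in the interaction. Over both genotypes it was 4 without A17fl/fl + NS replicate 2 or 3 and 1 without A17fl/fl + NS replicate 1, A17α-MHCKO + NS replicate 1 or 3, or A17α-MHCKO + DOX replicate 3. DESeq2 gave 4 genes after doxorubicin in A17fl/fl mice, 2 in the interaction and 1 after doxorubicin over both genotypes. With only the groups compared in the fit there were 3 after doxorubicin in A17fl/fl mice and 0 between the genotypes after saline. With an adjusted p under 0.05 in place of the unadjusted one there were 0 after doxorubicin in A17fl/fl mice, in A17α-MHCKO mice and over both genotypes, and 0 between the genotypes after saline and in the interaction. The cause of these shifts was not tested. Without A17fl/fl + NS replicate 1, 15 of the 44 genes changed sign after doxorubicin in A17fl/fl mice, Ncf4 among them. Only values with an unadjusted p under 0.05 in the fit to all libraries were followed through all settings. Of these, 1 reversed: Ncf4 after doxorubicin in A17fl/fl mice was -2.41 when replicate 3 of A17fl/fl + NS was left out and 0.55 when replicate 1 of that group was. Of the others past an unadjusted p of 0.05, over all left-out libraries 559 stayed past it in the same direction and 172 did not; with the groups fitted alone 20 stayed and 17 did not, with the block 50 and 11, with DESeq2 53 and 8, and under the other scalings, filters and the likelihood ratio test 56 to 59 stayed. With a replicate block 2 genes met the limits between the genotypes after saline and 1 after doxorubicin over both genotypes. In their deviations from the group means, 3 of 18 same-number pairs had a correlation over 0.1. By the same measure, 0 libraries correlated best with their own number in every other group. With 3 libraries per group these counts cannot settle whether the replicate numbers pair the mice.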
